A study of Homo sapiens with 6 samples.

Results

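Keratins are the intermediate filament proteins of epithelial cells, and 10 of them were followed here in cancer cells that survive a kinase inhibitor. They were the rows of the gene count table with the symbols KRT7, KRT8, KRT18 and KRT19, the keratins of simple epithelium, and KRT5, KRT6A, KRT15, KRT17, KRT80 and KRT81, keratins of basal, stressed or hair-forming epithelium. All 10 were found among the 36459 gene symbols of the table. Each of them passed the filter on low counts, as did 20 of the 55 keratin genes in the table. RNA-seq was performed on PC9, a human line of non-small cell lung cancer (NSCLC) that depends on mutant EGFR. The 3 parental libraries came from separate untreated cultures. The 3 persister libraries came from cells kept for 6 days in 15 µM erlotinib, an EGFR kinase inhibitor, and each pooled several independent cultures. Both groups therefore share the line and its EGFR mutation, and differ in drug, in time in the drug and in how cultures were pooled, which cannot be told apart in these libraries.

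A keratin filament is built from heterodimers of a type I chain, encoded in the cluster on chromosome 17, and a type II chain, encoded in the cluster on chromosome 12, where the type I gene KRT18 also lies. KRT8 with KRT18 forms the filaments of single-layered epithelium, and KRT7 and KRT19 join them in ducts and airways. KRT5 with KRT14 or KRT15 marks basal cells of layered epithelium, KRT6A with KRT16 or KRT17 is induced in wounded and activated epithelium, and KRT81 belongs to the hair keratins. Of the keratins listed here, KRT15, KRT17, KRT18 and KRT19 are of type I, and KRT5, KRT6A, KRT7, KRT8, KRT80 and KRT81 are of type II.

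Gene counts summed to between 29476725 and 34893782 per library. The epithelial identity of both groups was visible in their markers: all 10 genes of an epithelial list passed the filter, with a summed level of 2913.4 to 3079.7 CPM, counts scaled to library size with TMM factors, in parental and 2472.8 to 2548.0 CPM in persister libraries. EPCAM, a surface marker of epithelium, had a mean of 387.8 CPM in parental and 341.5 CPM in persister cells. Of 8 lung adenocarcinoma markers only the surfactant gene SFTPB passed the filter, at 4.18 and 1.23 CPM, while the lung factor NKX2-1 was at or near 0. Markers of other cell types were low. The summed level of 8 fibroblast markers was 10.5 to 11.0 CPM in parental and 27.4 to 30.8 CPM in persister libraries, with the collagen gene COL3A1 at 0. That of 6 endothelial markers was 8.28 to 9.0 and 3.73 to 4.27 CPM, with CLDN5 at 0, and that of 8 leukocyte markers was 75.3 to 77.2 and 19.8 to 22.9 CPM, most of it CD68, with CD3E at 0. In the test described below, both fibroblast markers that passed the filter, COL1A1 and PDGFRB, were higher in persister cells. Of 2 tested endothelial markers, PECAM1 was lower and CDH5 was not called. Of 3 tested leukocyte markers, CD68 was lower, and CD14 and PTPRC were not called. Of all genes tested, 28.7% were higher and 28.1% lower. The part of other cell types in the keratin results was not tested.

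The keratins did not move as a block. With edgeR's quasi-likelihood test, 8 of the 10 had a Benjamini-Hochberg adjusted p-value under 0.01, 3 of them higher and 5 lower in persister cells. Among all 14626 genes tested, 56.8% passed that limit, 28.7% higher and 28.1% lower. The same 8 keratins had parental and persister libraries that did not overlap in CPM, as did 71.3% of all genes tested. Against these shares the number of changed keratins is not in itself a result about keratins. The median log2 fold change, persister over parental, was -0.86 over the 4 simple keratins, -0.15 over the 6 others and -0.01 over all genes tested. In bulk libraries, fewer cells that make a transcript and less of it per cell cannot be told apart.

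**Figure D1:**
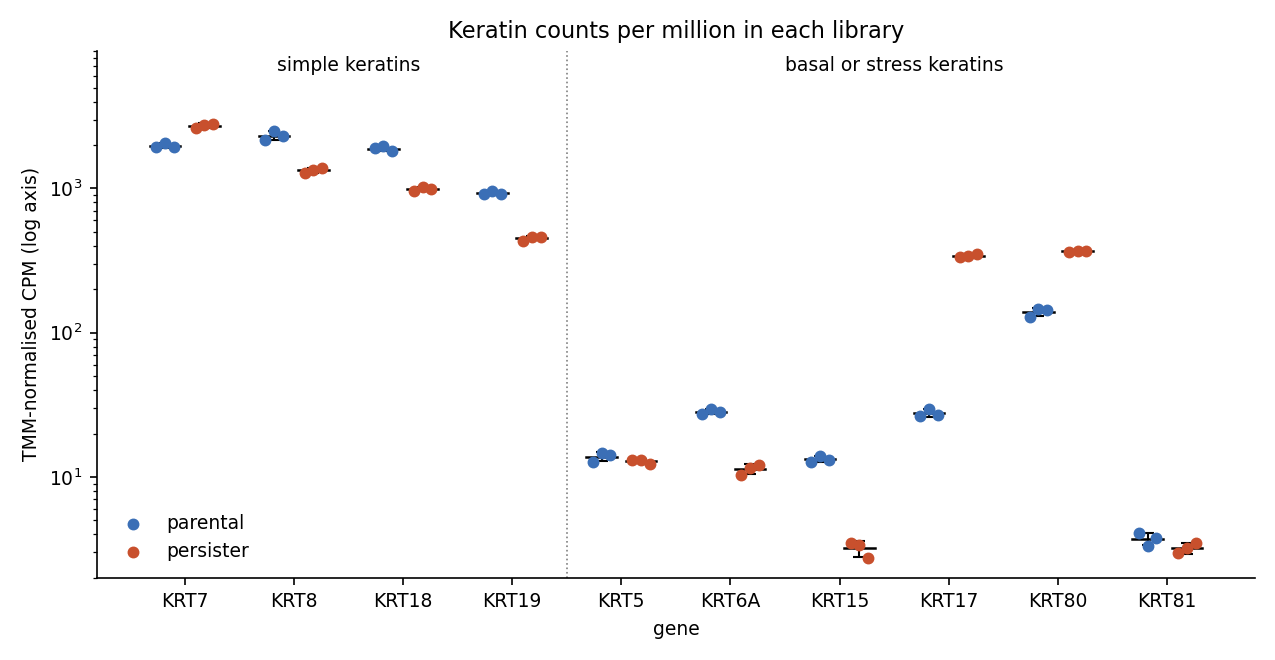
Level of each of the 10 keratins in CPM on a log axis, with 1 point per library and a bar at the mean of each group (n = 3). KRT17 and KRT80 sit higher and KRT6A and KRT15 lower in all 3 persister libraries, while the points of KRT5 and KRT81 overlap.

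Among the simple keratins, the pair KRT8 and KRT18 and the short type I keratin KRT19 were lower in persister cells, while KRT7 was higher. KRT8 (ENSG00000170421, GRCh38 chromosome 12, 52897187 to 52949954, minus strand) was measured at 2165.8, 2486.8 and 2316.4 CPM in parental and at 1285.2, 1338.1 and 1388.0 CPM in persister libraries. All persister values lay below all parental values, with a log2 fold change of -0.80 (SE 0.0506, adjusted p = 1.61e-07). Its partner KRT18 (ENSG00000111057, chromosome 12, 52948871 to 52952906, plus strand) overlaps one end of its annotated span on the opposite strand. It was measured at 1892.2, 1964.9 and 1809.3 CPM in parental and 960.0, 1028.4 and 997.8 CPM in persister libraries, again without overlap. The log2 fold change was -0.92 (SE 0.0411, adjusted p = 1.03e-08).

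KRT19 (ENSG00000171345, chromosome 17, 41523617 to 41528308, minus strand), which lacks the tail domain of other keratins, showed the largest fall of the 4. It was measured at 908.3, 954.1 and 909.3 CPM in parental and at 434.5, 462.9 and 459.8 CPM in persister libraries, a level 2.04-fold lower. The log2 fold change was -1.03 (SE 0.0385, adjusted p = 2.72e-09). KRT7 (ENSG00000135480, chromosome 12, 52232520 to 52252186, plus strand), the type II keratin of glands and ducts, went the other way. It was measured at 1945.0, 2066.4 and 1938.5 CPM in parental and at 2605.0, 2770.8 and 2799.2 CPM in persister libraries. Its groups did not overlap either, and the rise was 1.37-fold, with a log2 fold change of 0.46 (SE 0.0401, adjusted p = 2.07e-06).

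KRT17 was the keratin with the largest change and had the 35th largest fitted rise among all 14626 genes tested. It encodes a type I keratin of skin appendages and wounded epithelium. Reads of KRT17 can be confused with those of KRT16 and KRT14, whose coding sequences were 78.7% and 85.2% identical to its own over the aligned bases. A stretch of 75 bases of the first exon is shown, chosen as the coding stretch of this length that differs most from both copies. It marks the upper end of how far the copies differ within a read, not a typical read. The windows are at chr17:41624085-41624159 for KRT17, chr17:41612165-41612239 for KRT16 and chr17:41586317-41586391 for KRT14, all on the minus strand of GRCh38. Capitals mark bases that are not shared, in KRT17 those that differ from either copy and in the others those that differ from KRT17.
KRT17: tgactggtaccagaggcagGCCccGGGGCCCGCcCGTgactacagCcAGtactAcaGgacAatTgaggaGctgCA
KRT16: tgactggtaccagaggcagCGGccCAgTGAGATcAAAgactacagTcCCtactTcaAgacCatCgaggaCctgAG
KRT14: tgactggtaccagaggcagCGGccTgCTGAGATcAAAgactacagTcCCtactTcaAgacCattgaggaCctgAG
In this window 25 bases of KRT17 differ from at least one copy. Over its main transcript, 62.3% of stretches of 31 bases, the default word length of the authors' aligner, were found in no other annotated gene. The gene that shared most of them, 21.0%, was ENSG00000290656, which was not included under that name when relatives were summed with KRT17.

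KRT17 (ENSG00000128422, chromosome 17, 41619442 to 41624842, minus strand) was measured at 26.6, 29.7 and 27.0 CPM in parental libraries. In persister libraries it was measured at 333.0, 337.9 and 352.4 CPM. The groups lay far apart, with a 12.3-fold rise and a log2 fold change of 3.62 (SE 0.0504, adjusted p = 4.12e-12). When KRT17 was counted together with its relatives KRT16 and KRT14 and its pseudogenes, the log2 fold change was 3.15. KRT80 (ENSG00000167767, chromosome 12, 52168996 to 52192014, minus strand), a type II keratin that associates with cell junctions in differentiating epithelium, rose as well. It was measured at 128.7, 145.7 and 143.6 CPM in parental and 363.7, 370.4 and 370.9 CPM in persister libraries. The rise was 2.64-fold, with a log2 fold change of 1.40 (SE 0.0477, adjusted p = 1.31e-09), and 98.5% of its 31-base stretches were found in no other gene.

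KRT6A and KRT15 fell. KRT6A (ENSG00000205420, chromosome 12, 52487176 to 52493257, minus strand) encodes the type II keratin of activated keratinocytes and has near copies in KRT6B and KRT6C, with coding sequences 97.5% and 97.9% identical. Part of exon 2 is shown, chosen as the coding stretch of its length where KRT6A and KRT6B differ most. The windows are at chr12:52491532-52491606 and chr12:52450416-52450490, both on the minus strand of GRCh38. Capitals mark the 10 bases that differ.
KRT6A: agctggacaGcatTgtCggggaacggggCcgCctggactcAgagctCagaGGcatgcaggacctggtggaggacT
KRT6B: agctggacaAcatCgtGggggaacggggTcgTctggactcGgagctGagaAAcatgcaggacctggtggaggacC
Of the 31-base stretches of KRT6A, 47.3% were found in no other gene and 45.8% were shared with KRT6C. The copies carried few counts. KRT6B had 6, 9 and 2 counts in parental and 9, 5 and 5 in persister libraries, and KRT6C had 6, 5 and 7 counts in parental and 0, 2 and 0 in persister libraries, both under the filter. KRT6A itself was measured at 27.3, 29.4 and 28.3 CPM in parental and at 10.4, 11.6 and 12.2 CPM in persister libraries. It was 2.49-fold lower, without overlap, with a log2 fold change of -1.31 (SE 0.0669, adjusted p = 3.03e-08).

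KRT15 (ENSG00000171346, chromosome 17, 41513745 to 41522529, minus strand), a type I keratin of basal cells and of the hair follicle bulge, showed the largest fall of the 10. It was measured at 12.8, 14 and 13.2 CPM in parental and at 3.49, 3.4 and 2.75 CPM in persister libraries, which is 4.15-fold lower. The log2 fold change was -2.06 (SE 0.1, adjusted p = 2.13e-08). Its sequence stood apart from its relatives, with 94.6% of 31-base stretches found in no other gene. KRT5, the type II keratin that marks basal cells, did not pass the limit. KRT5 (ENSG00000186081, chromosome 12, 52514575 to 52520530, minus strand) was measured at 12.7, 14.7 and 14.1 CPM in parental and at 13.1, 13.2 and 12.4 CPM in persister libraries. These ranges overlapped, and the log2 fold change was -0.10 (SE 0.0727, adjusted p = 0.246).

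KRT81 (ENSG00000205426, chromosome 12, 52285913 to 52291534, minus strand), a hair keratin, was the lowest of the 10 per transcript length and did not pass the limit either. It had 140, 114 and 127 counts in parental and 86, 101 and 120 in persister libraries. These were 4.07, 3.35 and 3.77 CPM and 2.95, 3.21 and 3.51 CPM, with overlapping ranges. The log2 fold change was -0.21 (SE 0.126, adjusted p = 0.165). KRT81 and KRT86 overlap in the annotation on opposite strands, and their coding sequences were 93.4% identical. The KRT81 transcript holds a stretch of 647 bases in which every 31-base word was found in some other gene. Of all its 31-base stretches, 43.2% were shared with KRT86. Only 46.8% of the 31-base stretches of KRT81 were found in no other gene. KRT86 was higher in persister cells (log2 fold change 0.74, adjusted p = 0.00369). When KRT81 was summed with its copies, its log2 fold change turned from -0.21 to 0.17 (adjusted p = 0.132), so no direction can be given for KRT81.

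Levels of different keratins were compared per length, as TPM, in which each count is divided by the annotated transcript length and each library is brought to the same total. In parental cells KRT18, KRT8 and KRT7 led at means of 2547.6, 2477.1 and 2358.1 TPM, with library ranges that overlapped. KRT7 was the lowest of them within each parental library, while KRT18 lay above KRT8 in 2 libraries and below it in the other. KRT19 followed at 1268.1 TPM, then KRT80 at 68.9, KRT17 at 37.9, KRT6A at 23.6, KRT15 at 19.1, KRT5 at 12 and KRT81 at 3.68 TPM, and the library ranges of these neighbours did not overlap. In persister cells KRT7 stood alone at 3366.9 TPM. KRT8 and KRT18 came next at 1462.9 ± 46.6 and 1390.8 ± 13.4 TPM (SD, n = 3), with KRT8 above KRT18 in each library. KRT19, at 643.5 TPM, and KRT17, at 488.2 TPM, were then closer to each other than in parental cells. KRT80 followed at 188.8 TPM, then KRT5 at 11.6, KRT6A at 9.72, KRT15 at 4.83 and KRT81 at 3.29 TPM.

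The make-up of the keratin pool shifted accordingly, and this can be read within each library, without scaling between libraries. The 6 basal or stress keratins held 2.98%, 3.07% and 3.19% of the counts of the 10 keratins in parental libraries and 12.1%, 11.7% and 11.8% in persister libraries. The difference was 8.77 percentage points, with p = 0.1 in an exact two-sided permutation test, the smallest p that 3 against 3 libraries allow. Per length the share went from 1.87% to 9.33%. In persister cells nearly all of this share was KRT17 and KRT80. By counts KRT17 went from 0.378% to 5.46% of the 10 and KRT80 from 1.9% to 5.9%. KRT6A went from 0.386% to 0.182% and KRT15 from 0.182% to 0.0516%, while KRT5 and KRT81 changed little. The shift is therefore one of KRT17 and KRT80, not of the 6 as a group. KRT17 made 0.43% of the summed TPM of the 10 in parental and 6.45% in persister cells, and KRT80 made 0.782% and 2.49%. KRT7 went from 26.7% to 44.5% of the summed TPM, KRT8 from 28.1% to 19.3%, KRT18 from 28.9% to 18.4% and KRT19 from 14.4% to 8.5%. With all 55 keratin genes as the pool the shares were 8.98% and 13.8%, since KRT13 then counts among the basal or stress keratins.

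**Figure D2:**
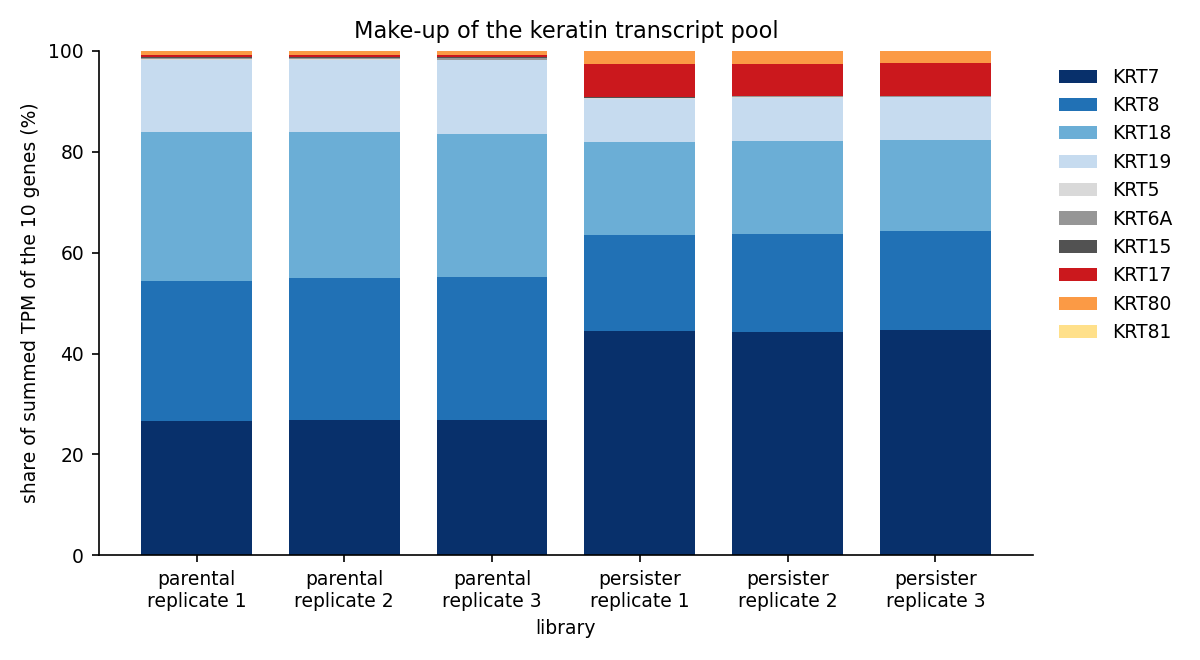
Share of the summed TPM of the 10 keratins held by each, as 1 stacked bar per library from 0 to 100%. KRT7 takes 26.7% of the bar in parental and 44.5% in persister libraries on average, and KRT17 goes from 0.43% to 6.45%.

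Type I and type II chains did not fall alike. The summed level of the 4 type I keratins was 3872.7 ± 176.3 TPM in parental and 2527.3 ± 8.25 TPM in persister cells (SD, n = 3; exact permutation p = 0.1). That of the 6 type II keratins was 4943.4 ± 258.1 and 5043.3 ± 103.7 TPM (exact permutation p = 0.6), the rise of KRT7 and KRT80 standing beside the fall of KRT8. The ratio of type I to type II counts was 0.663, 0.624 and 0.621 in parental and 0.404, 0.407 and 0.395 in persister libraries. All persister ratios were lower, and the difference was -0.66 on the log2 scale (exact permutation p = 0.1). All keratins together made 0.767%, 0.841% and 0.782% of gene counts in parental and 0.609%, 0.632% and 0.641% in persister libraries, and the 10 keratins made 93.9% and 97.8% of those keratin counts.

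Keratins that are known to pair were compared within libraries by the ratio of their counts. KRT18 over KRT8 changed little, from a mean of 0.815 to 0.745, although all 3 persister ratios lay below the parental ones. KRT19 over KRT7, by contrast, went from 0.466 to 0.166. Among the basal pairs, KRT15 over KRT5 went from 0.965 to 0.248, following the fall of KRT15. KRT17 over KRT6A went from 0.98 to 30.1, and KRT16 over KRT6A from 0.53 to 3.57. The estimated counts of these type I keratins of activated epithelium thus rose while those of their type II partner fell. For KRT16, 60.9% of 31-base stretches were found in no other gene, and the part of KRT17 reads in its rise was not tested. Parental and persister ratios did not overlap in any of these pairs, and each had the smallest exact permutation p, 0.1.

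**Figure D3:**
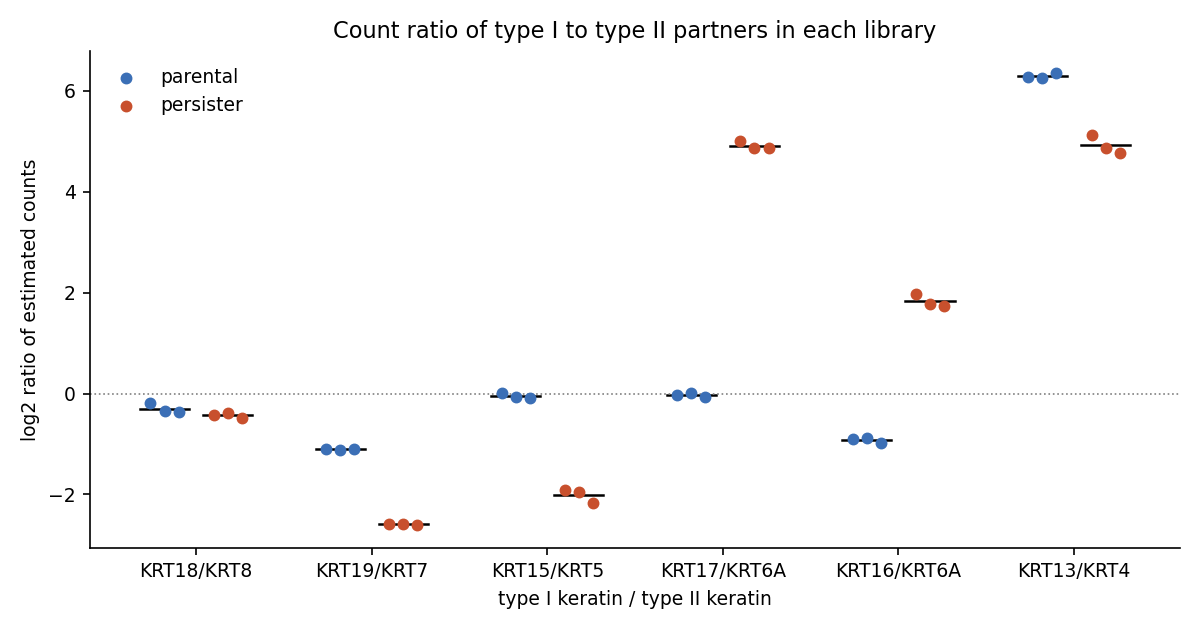
Log2 ratio of the counts of paired keratins in each library, with 1 point per library (n = 3 per group). KRT18 over KRT8 differs by 0.129 in its log2 means, the smallest shift plotted, and KRT17 over KRT6A by 4.94.

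The called transcripts of the 10 keratins changed in the direction of their genes. For KRT7, KRT18, KRT19, KRT5, KRT6A and KRT81 a single transcript held nearly all counts, so its agreement with the gene was fixed in advance. KRT8-207, a called transcript of KRT8, lies within the span of KRT18 on the opposite strand, and the part of KRT18 reads in its fall was not tested. Of 75 annotated transcripts with counts, 49 passed the filter, 9 were higher, 6 were lower and 34 did not pass, and none of the 15 went against its gene. Of all transcripts tested 7.8% passed. The 15 became 7 with a replicate block, 8 without parental replicate 3 and 9 without either persister replicate 2 or persister replicate 3. Within the genes, 0 of the 7 keratins that could be tested changed in transcript usage by edgeR's Simes p-value, 1 had an unadjusted p under 0.05, and the smallest adjusted p was 0.42, for KRT8. Of all genes tested 1.89% changed. On simulated counts with a log2 change of 1, the usage test recovered 37.2% of the changed genes, so a change could be missed.

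KRT17-201, the main KRT17 transcript, held 87.1% of the gene's transcript counts in parental and 88.1% in persister cells, with a log2 fold change of 3.64, and KRT17-202 rose alongside at 3.52. KRT80 was carried by KRT80-202, with 56.5% and 57.9%, and KRT80-201, with 37.9% and 36.6%. KRT8-201 held 88.4% and 90.1%, and for KRT7, KRT18, KRT19, KRT5, KRT6A and KRT81 a single transcript held at least 98.4% in both groups. KRT15 was spread over more transcripts. Its main coding transcript KRT15-201 went from 50.7% to 33.2% of the counts, while the 2 most counted of its retained-intron transcripts, which hold no full coding sequence, took larger shares. The more abundant went from a mean of 19.8% to 25.7%, with library ranges that overlapped, and the other, KRT15-207, from 7.8% to 22%, with ranges of 7.64% to 7.99% and 15.1% to 28.4%. KRT15-207 had 35, 37 and 34 counts in parental and 29, 16 and 21 in persister libraries, and KRT15 was among the keratins whose transcript usage did not pass the test.

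Copies elsewhere in the genome could take or give reads. KRT8 and KRT18 have many processed pseudogenes, and 43.4% and 33.1% of their 31-base stretches were found in no other gene. The pseudogenes named after KRT8 carried 0.341% to 0.826% of its count and those of KRT18 0.0307% to 0.0642%, per library. Those of KRT17 carried 0% to 0.55% and those of KRT19 at most 0.00788%. Of the 31-base stretches of KRT18, 28.6% lie on the opposite strand of other genes, KRT8 among them, and whether counting used the strand is not given in the sources used here.

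The other keratin genes that passed the filter were 10 in number and comprised 6 that were higher in persister cells, 3 that were lower and 1 that did not pass the limit. Of all genes tested, 28.7% were higher and 28.1% lower, and the tally was not tested against these shares. The list of close relatives held 5 of these 10 other keratins, 4 higher and 1 lower, with a median log2 fold change of 1.43. KRT14 and KRT83 passed the filter only through their persister libraries, where they were high. The tally and the median of the relatives are therefore no evidence of a common rise. KRT13, a type I keratin of mucosal epithelium, had the largest fall of the 20 tested keratins, from 407.9, 445.2 and 418.5 CPM in parental to 54.1, 60.6 and 56.8 CPM in persister libraries (log2 fold change -2.89, adjusted p = 1.78e-11). It was the fifth most counted keratin of parental cells. KRT16 rose from 14.7, 16 and 14.3 CPM to 40.8, 39.8 and 40.6 CPM (log2 fold change 1.43, adjusted p = 2.9e-09). Both relatives were clear of overlap. KRT14, the partner of KRT5, had 0, 7 and 1 counts in parental and 15, 19 and 13 in persister libraries (adjusted p = 0.00435). Most of them fell on a retained-intron transcript, with 14, 15 and 7 counts in persister libraries, and the coding KRT14-201 had 0, 4 and 6. KRT83, a hair keratin, had 6, 4 and 6 against 20, 13 and 18 (adjusted p = 0.00148). These low counts were fragile: KRT14 missed the limit without parental replicate 3 (adjusted p = 0.0223), without persister replicate 1 (0.0146) and without persister replicate 2 (0.0192). KRT86 missed it without parental replicate 1 (0.015), parental replicate 3 (0.018), persister replicate 1 (0.0154) or persister replicate 3 (0.0164). With DESeq2, KRT83 and KRT86 missed it at adjusted p-values of 0.0133 and 0.0272. The relatives past the limit numbered 3 without parental replicate 3 and 3 without persister replicate 1.

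Outside that list, KRT34, a hair keratin, rose (log2 fold change 2.01, adjusted p = 8.84e-07), KRT4, the type II partner of KRT13, fell (log2 fold change -1.51, adjusted p = 2.69e-06), and KRT78 fell on few counts. Since KRT13 and KRT4 fell by different amounts, their ratio went from 78.2 to 30.6. KRT10, a keratin of differentiating epidermis, was called higher by a log2 fold change of only 0.24 (adjusted p = 0.00451). That call was lost with any persister library or parental replicate 3 left out and with scaling by library size or upper quartile, at adjusted p-values of 0.0131 to 0.0256. KRT78 missed the limit without persister replicate 3 (adjusted p = 0.0109).

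Ordered along the chromosomes, the keratins that moved together were often neighbours. On chromosome 17, KRT13, KRT15 and KRT19 follow one another among the tested keratins and were all lower, and KRT14, KRT16 and KRT17 follow one another and were all higher. On chromosome 12, KRT80 and KRT7 at one end were higher and KRT8 and KRT18 at the other end were lower. Between these ends KRT86 and KRT83 were higher, KRT6A, KRT4 and KRT78 were lower, and KRT81 and KRT5 did not pass the limit. The chromosome 12 span held 11 tested keratins, 4 higher and 5 lower, and the chromosome 17 span held 9, 5 higher and 3 lower. Among all genes tested, 28.7% were higher and 28.1% lower. No test of this order was made, and reads shared between KRT14, KRT16 and KRT17 would move them together.

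**Figure D4:**
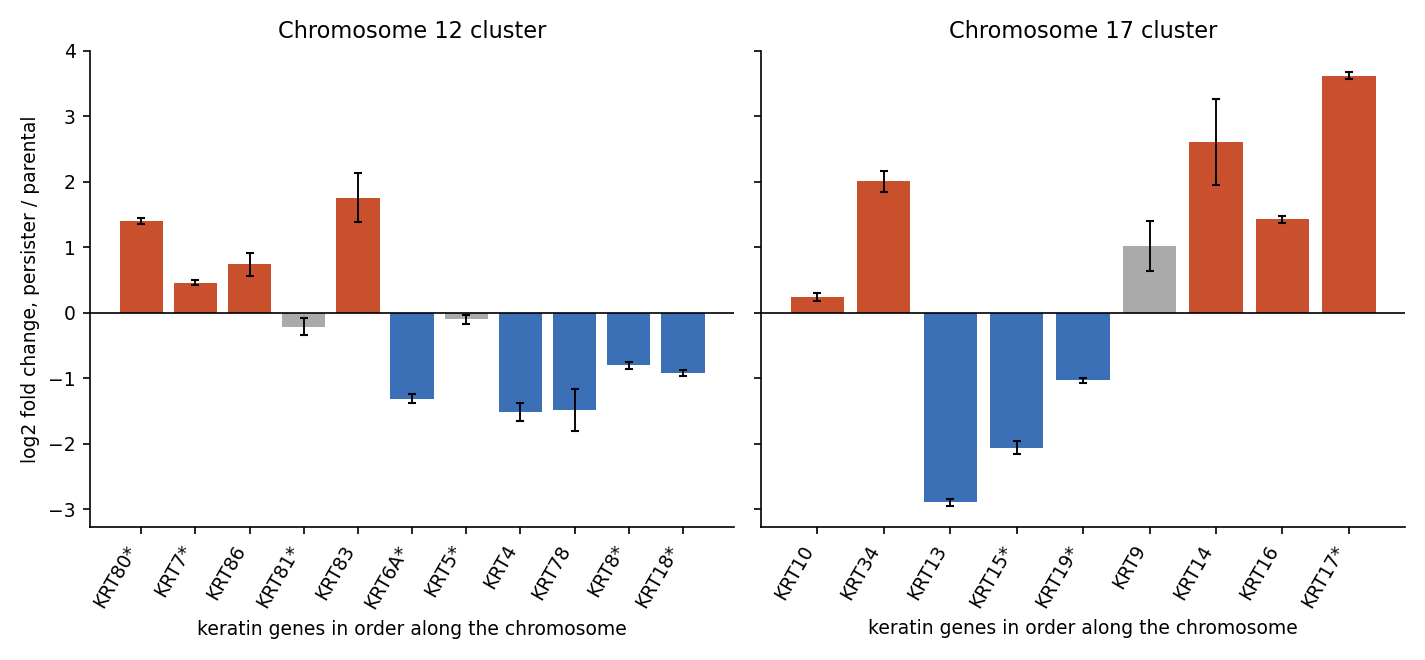
Log2 fold change, persister over parental, of every tested keratin gene in its order along chromosome 12 (11 genes) and chromosome 17 (9 genes), with bars for the standard error and a star at each of the 10 keratins followed here. KRT13, KRT15 and KRT19 lie below 0 and KRT14, KRT16 and KRT17 above it.

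Other genes of the keratin cytoskeleton were called in both directions, as were all genes tested, of which 28.7% were higher and 28.1% lower. Of 14 tested desmosome and plakin genes, which anchor keratin filaments at cell contacts, 7 were higher and 4 lower, with a median log2 fold change of 0.15. PLEC, which links filaments to hemidesmosomes, rose by 0.83, PKP4 by 0.59 and the desmosomal plaque gene PKP1 by 1.59 on the log2 scale. PKP2 fell by 0.60, PPL by 0.41 and the desmosomal cadherin DSG2 by 0.40. DSP and DSC2 were called higher, by 0.21 and 0.24, but each kept that call in only 10 of 15 alternative fits. Of 15 keratin-binding and turnover genes 4 were higher, 2 lower and 9 not past the limit, with a median of 0.09. EPPK1, a plakin that binds keratin filaments and stabilises them, rose from a mean of 48.6 to 149.6 CPM (log2 fold change 1.62, adjusted p = 9.4e-08). CASP6, the caspase that cleaves KRT18, fell by 0.46. Of 10 tested intermediate filament genes outside the keratins, 3 were higher and 4 lower. Among the lower, PRPH kept its call in only 6 of 14 alternative fits. It had 18, 11 and 13 counts in parental and 5, 4 and 5 in persister libraries, and passed the filter only through the parental ones. Its place in the tally is therefore no evidence of a common fall. INA, a filament gene of neurons, rose by 1.2 (adjusted p = 6.78e-09), SYNM, one of muscle, by 1.21 and the lamin gene LMNB2 by 0.39 on the log2 scale. The lamin gene LMNA had a log2 fold change of -0.74, BFSP1, a filament gene of the lens, one of -1.32, and VIM, the filament of mesenchymal cells, went from 13.5 to 8.67 CPM (log2 fold change -0.63).

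Of 17 tested transcription factors tied to keratin genes, 6 were higher and 5 lower, a share called that is close to the 56.8% of all genes. TP63, the factor of basal epithelium that acts on KRT5 and KRT14, fell from 3.91 to 0.401 CPM (log2 fold change -3.27, adjusted p = 6.01e-08). ELF3, an epithelial factor, had a log2 fold change of -0.91 and KLF5 one of -0.62. GLI2 rose by 0.99, STAT3, which acts on KRT17 in skin, by 0.41 and TFAP2A by 0.38. Of 9 tested genes of the cornified envelope and squamous epithelium, 4 were higher and 3 lower, against 28.7% and 28.1% of all genes. TGM1, which cross-links the envelope, went from 2.26 to 11.9 CPM (log2 fold change 2.40), and IVL, one of its substrates, from 0.999 to 5.61 CPM (log2 fold change 2.48). PI3 rose by 2.76, while SCEL fell by 1.03 and CDSN by 1.87. Of the 10 epithelial markers 7 were lower, where 28.1% of all genes were, RAB25 by -0.62 and ESRP1 by -0.31 among them, and only CDH1, the cadherin of epithelial contacts, was higher, by 0.60.

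**Figure D5:**
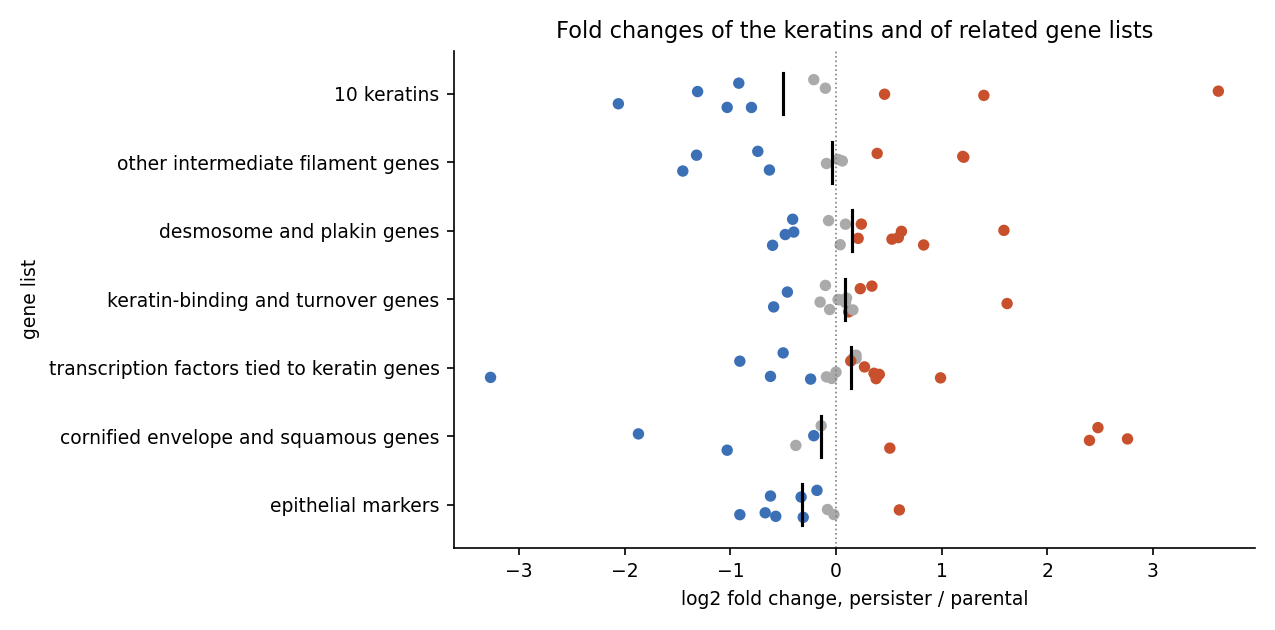
Log2 fold change, persister over parental, of the tested genes of each list, with 1 point per gene and a line at the list's median. The medians of the 10 keratins (-0.5), simple and basal or stress together, and of the epithelial markers (-0.32) lie below 0. Those of the desmosome and plakin genes (0.15) and of the keratin-binding genes (0.09) lie close to the median of all genes (-0.01).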

How the data were processed

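RNA was sequenced from 3 parental and 3 persister PC9 libraries, grouped by their labels. The authors enriched poly-A RNA, trimmed and filtered the reads and used kallisto to assign them to the Ensembl transcripts of GRCh38 (version 0.46.1 per the submitters' processing notes). The deposited values are kallisto's estimated counts by gene symbol and by transcript, written as whole numbers and not normalized. Kallisto divides reads shared by similar genes by a model, and that uncertainty enters no test here.

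Tests used edgeR 4.0.16 under R 4.3.3: filterByExpr, TMM scaling, glmQLFit and glmQLFTest, Benjamini-Hochberg adjustment over all genes or transcripts tested, and a limit of 0.01. Standard errors (SE) were taken as the absolute log2 fold change over the root of the test's F value. Transcript usage was tested with diffSpliceDGE. Symbols (27685 matched), 167067 of 188753 transcripts, coordinates, lengths and sequences were matched to GENCODE 44 of GRCh38. TPM was computed from those lengths. Ratios and shares were compared by exact permutation of libraries. Alternatives were DESeq2 1.42.0, limma-voom 3.58.1, other scalings, filters and limits, gene counts from transcripts, relatives and pseudogenes summed, a replicate block and each library left out. The scripts were tested on simulated data with a log2 change of 1 and a single dispersion of 0.01 for genes and transcripts alike. In the simulated data the tests recovered 86.5% of changed genes, 50.5% of changed transcripts and 37.2% of genes with changed usage. Uncertainty in dividing shared reads was not simulated, so recovery in the real libraries may be lower.

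The 10 keratins and all gene lists were chosen with earlier results of these data known. All 10 are named, with the tested relatives, and of each other list up to 3 genes per direction with the smallest p. DSP, DSC2 and PRPH are named for calls that some alternatives lost. Cell type markers are named where they had the highest counts or stood at 0, and those of other cell types also where they passed the filter. Libraries of a group differed by more than counting error (chi-square per degree of freedom 3.46 to 21.2). Depth of 29476725 to 34893782 counts makes counting error small except for keratins with few counts. The edgeR p-values set the group difference against a spread between libraries that is estimated in part across genes. Pooling of several cultures per persister library can narrow that spread, so p-values and SEs do not measure variation between single persister cultures. Figures were drawn with matplotlib 3.10.9.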

Additional observations from a re-analysis of the deposited data

How the results depend on the processing

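The number of changed keratins was 8 under all 17 alternatives, and 169 of 170 values of single keratins kept their direction and their side of the limit. The exception was KRT81, at 0.17 when summed with its copies. The log2 fold change of KRT17 ran from 3.15 to 3.67, the share difference from 4.82 to 8.86 percentage points and the log2 type ratio from -0.77 to -0.63. Of 176 list counts 165 stayed within 1.5 times. Changed close relatives, 5 in the main test, numbered 3 with a count of at least 10 in all libraries and 3 with DESeq2, and 3 to 5 with a library left out. Changed endothelial markers, 1 in the main test, numbered 2 with library size only, 0 with a count of at least 10 in all libraries, since PECAM1 then drops out of the test, and 2 at an adjusted p under 0.05. Changed leukocyte markers, 1 in the main test, numbered 2 without an expression filter, 3 at an adjusted p under 0.05, and 1 to 2 with a library left out. Changed fibroblast markers, 2 in the main test, numbered 1 to 2 with a library left out. Changed transcripts, 15 in the main test, numbered 7 with a replicate block and 8 to 12 with a library left out. Same-numbered libraries of the groups had deviations correlated at 0.124, 0.0236 and 0.0215, so the numbers were not taken to pair them, and persister replicate 3 correlated best with parental replicate 2 (0.0971). Under the block 8 keratins were still called. Few counts limit KRT81, KRT14 and KRT83.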
